A study of Drosophila melanogaster with 6 samples.

Results

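The mitosis and spindle genes of the fly are described here in *mir-998* mutant and wild type eye discs. They are a list of 41 genes that drive entry into mitosis, build the spindle, guard chromosome segregation and divide the cell. Members were found by gene symbol or synonym in the annotation of the arrays, and a gene with more than 1 probe set was read from the one with the highest mean. A probe set is named for 31 of the 41 genes alone, against 11983 genes read in all. No value is given for *CycA*, *Cdk1*, *stg*, *polo*, *aurA*, *BubR1*, *Klp3A*, *asp*, *cnn* and *pav*, which were not analysed here. Eye imaginal discs were taken at the wandering stage of the third instar, from larvae grown at 25°C, and their RNA was profiled on 6 Affymetrix arrays. Of these 3 were *mir-998[exc222]* homozygotes in a *w* background, and 3 were *w1118*, the wild type. The *mir-998[exc222]* allele is a single line in which a remnant of a P element interrupts the hairpin of miR-998, a miRNA in the last intron of *dE2f1*. Mature miR-998 was not measured here, so the genotypes rest on the labels. Replicates are labelled biological, but nothing says that they came from separate crosses, and the p-values cover only the spread among these arrays, some of which may be technical.

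Mitosis is driven by Cdk1 bound to its cyclins and ends when the anaphase promoting complex (APC/C), a ubiquitin ligase, marks cyclins and securin for destruction. The spindle checkpoint holds the APC/C back until every kinetochore is attached to microtubules. In the third instar eye disc, cells divide asynchronously ahead of the morphogenetic furrow and arrest in G1 within it. Behind it some of them divide once more in the second mitotic wave. Many mitotic genes are transcribed in dividing cells, several under E2F control, and dE2F1 is the product of the gene that hosts *mir-998*. In RNA from whole discs, fewer dividing cells and less mRNA in each of them cannot be told apart.

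The values are log2 expression values, and each change is the mutant mean minus the wild type mean on that scale. All 31 genes gave signal well over background. The mean of the dimmest, *cid*, was 6.92, whereas control probe sets for bacterial *trp* lay at 3.63 to 3.72 on average over the 6 arrays. Signals of different probe sets are not compared with each other, since each has its own response. Of the eye disc markers all 9 measured had means of 9.06 or more, from *ey* at 9.06 to *toy* at 12.23. Glue genes of the salivary gland averaged 9.30 to 12.73 over 7 genes on the mutant arrays and 8.82 to 11.97 on the wild type arrays. Fat body genes averaged 6.05 to 9.42 over 3 genes on the mutant arrays and 6.50 to 9.95 on the wild type arrays. Both marker lists thus varied widely within each genotype. Pearson correlations across probe sets were 0.9957 to 0.997 within the mutant, 0.9889 to 0.9936 within wild type and 0.9862 to 0.9906 between genotypes.

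None of the 31 mitosis and spindle genes passed an adjusted p of 0.05 in the mutant (limma, Benjamini-Hochberg over 18769 probe sets), where 1.93% of all genes did, 0.968% higher and 0.96% lower. Among genes as bright as those of the list, 2.51% passed. At an unadjusted p under 0.05, 4 of the 31 genes passed, *Mad1*, *Sse*, *CycB* and *aurB*, or 12.9%, against 13.9% of all genes. The first 3 of them stood higher in the mutant (7.06% of all genes did so) and *aurB* lower (6.83%). At the same threshold 551 of 5788 genes as bright as those of the list stood higher and 440 lower. Of the 31 genes 16 stood higher and 14 lower in the mutant, and *thr* had equal means. Of all genes 50.1% stood higher, and of genes as bright as those of the list 3218 of 5788 did. The median log2 change was 0.01 for the list, 0.0033 for all genes and 0.023 for genes as bright as those of the list. The changes of the list ran from -0.26 for *aurB* to 0.34 for *Mad1*. Of the 31 genes 28 had a change under 0.25 log2 units in either direction (81.9% of all genes).

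The arrays bound these changes closely. For all 31 genes the 95% interval lay within 1 log2 unit of 0, as it did for 93.4% of all genes. For 23 it lay within 0.5 log2 units, against 73.2% of all genes. The lowest bound was 0.606-fold, for *Klp10A*, and the highest was 1.58-fold, for *Spc25*. Changes of 2-fold or more in either direction thus lay outside the interval of every gene of the list that was measured. The smallest adjusted p of the list was 0.128, for *Mad1*, and the others had values of 0.302 or more (limma).

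**Figure D1:**
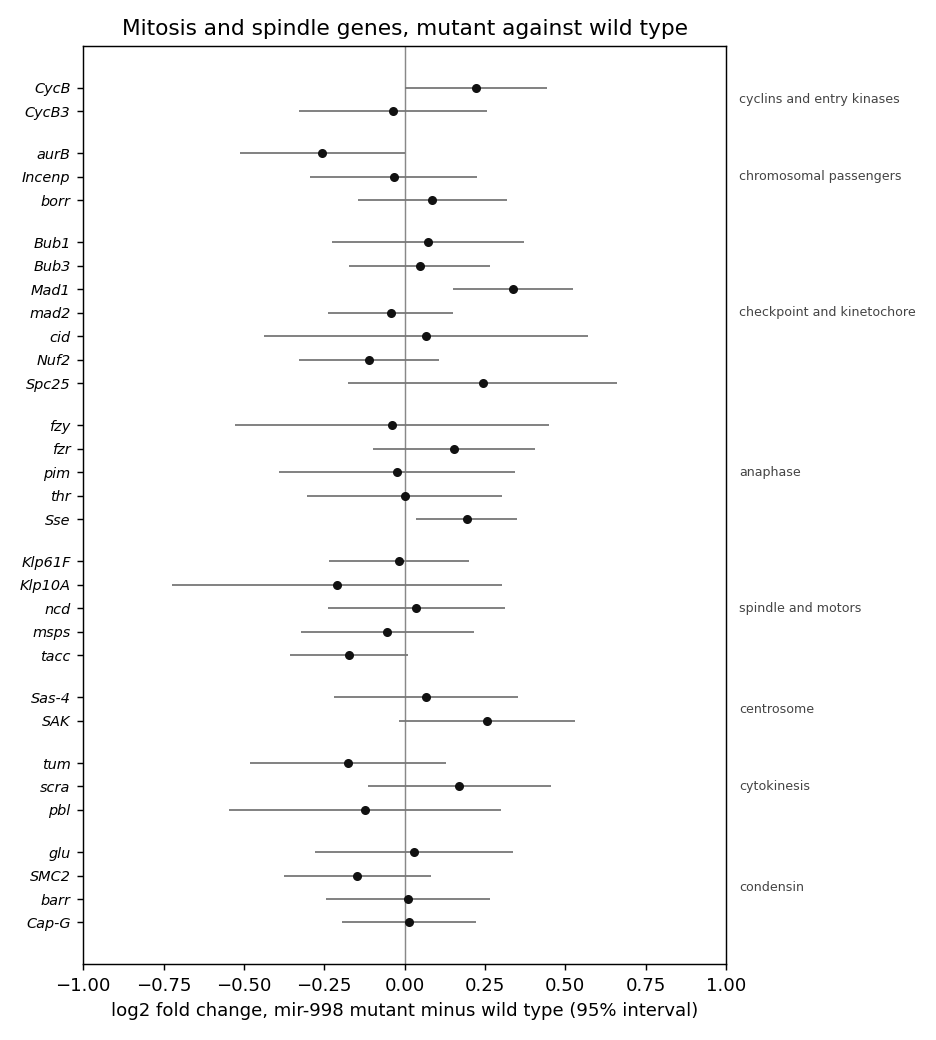
Log2 fold change of the 31 measured genes, mutant minus wild type (x axis), with the gene on the y axis grouped by role; points are limma estimates and bars their 95% intervals. All intervals lie between -0.72 and 0.66, and those of *Mad1* and *Sse* lie clear of 0 on the higher side, while those of *CycB* and *aurB* end next to 0.

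Of the 7 cyclins and entry kinases on the list, 2 were measured. *CycB*, the main mitotic cyclin, had log2 values of 11.29, 11.41 and 11.45 in the mutant and 11.16, 11.30 and 11.02 in wild type. The lowest mutant value lay just under the highest wild type value, so the genotypes overlapped. Its log2 change was 0.22 (standard error 0.092, adjusted p = 0.418, limma). *CycB3*, a B-type cyclin that promotes anaphase, stood at 9.51, 9.68 and 9.64 in the mutant and at 9.48, 9.90 and 9.56 in wild type. Here the wild type arrays enclosed all mutant values, and the change was -0.037 (standard error 0.12).

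All 3 listed genes of the chromosomal passenger complex were measured. The complex corrects faulty attachments at centromeres and later helps to form the cleavage furrow. *aurB*, its kinase, stood at 9.30, 9.15 and 9.22 in the mutant, against 9.63, 9.54 and 9.27 in wild type. Only wild type replicate 3 fell into the range of the mutant. The change of -0.26 (standard error 0.11) was the lowest of the list and did not pass (unadjusted p = 0.0499, adjusted p = 0.423, limma). Without wild type replicate 3 it was -0.36 (adjusted p = 0.0905, limma), and without wild type replicate 1 it was -0.18 (adjusted p = 0.615, limma). *borr*, which encodes the subunit Borealin, had log2 values of 11.21, 11.19 and 11.02 in the mutant and 11.19, 11.06 and 10.91 in wild type, a change of 0.087 (standard error 0.096) that was 0.015 without wild type replicate 3 and 0.155 without wild type replicate 1. The scaffold gene *Incenp* had a change of -0.033 (standard error 0.11), so the 3 listed genes of this complex did not share a direction. A further gene of the complex, *Det* (the fly survivin), lies outside the list. Its change was -0.21 (standard error 0.11, adjusted p = 0.539, limma).

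Among spindle checkpoint and kinetochore genes of the list, 7 of 8 were measured. *Mad1*, which anchors Mad2 at unattached kinetochores, had log2 values of 10.08, 10.13 and 10.15 in the mutant and 9.65, 9.85 and 9.85 in wild type. The genotypes did not overlap, as was so for 3 of the 31 genes, all higher in the mutant, or 9.68%; 9.37% of all genes were higher without overlap, and 8.73% were lower. The change of *Mad1* was 1.26-fold (95% interval 1.11 to 1.44), 0.34 on the log2 scale (standard error 0.078, unadjusted p = 0.00408, adjusted p = 0.128, limma). It ranged from 0.27 to 0.37 over 15 alternatives, in each of which its unadjusted p was under 0.05 and its adjusted p was 0.0764 or more. Some of these, such as the variance model or the choice of probe set, cannot alter the log2 change of a gene with 1 probe set.

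The other checkpoint genes gave smaller differences. *mad2*, the partner of Mad1 that inhibits Fzy, had a change of -0.043 (standard error 0.081). *Bub3*, which binds Bub1 and BubR1 at kinetochores, stood at 11.94, 11.88 and 11.76 in the mutant and 11.96, 11.77 and 11.71 in wild type, nearly the same range. *Bub1*, a checkpoint kinase, had a change of 0.073 (standard error 0.12). At the kinetochore itself, *cid*, the centromeric histone H3 variant, had 7.17, 6.81 and 6.89 in the mutant and 7.22, 7.01 and 6.44 in wild type. The spread of *cid* in wild type exceeded the difference between genotypes (0.067, standard error 0.21). For the Ndc80 complex, which grips microtubules, the listed genes *Spc25* and *Nuf2* gave changes of opposite sign. These were 0.24 (standard error 0.17) for *Spc25* and -0.11 (standard error 0.090) for *Nuf2*. *Ndc80* itself, outside the list, had a change of -0.29 (standard error 0.19, adjusted p = 0.678, limma). With 1 array left out that of *Spc25* ranged from 0.088 (without wild type replicate 3) to 0.42 (without wild type replicate 1) and that of *Nuf2* from -0.17 (without wild type replicate 3) to -0.052 (without mutant replicate 3).

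All 5 anaphase genes of the list were measured. *Sse*, which encodes separase, the protease that opens cohesin, had log2 values of 8.31, 8.21 and 8.20 in the mutant and 8.07, 8.08 and 7.99 in wild type. The genotypes did not overlap, and the spread was small in both. The change was 1.14-fold (95% interval 1.03 to 1.27), 0.19 on the log2 scale (standard error 0.065, unadjusted p = 0.0231, adjusted p = 0.302, limma). *thr*, which encodes a further subunit of the fly separase complex, stood at 8.0, 7.89 and 8.12 in the mutant and 7.90, 8.26 and 7.85 in wild type, with equal means. *pim*, the securin that holds separase inactive, had a change of -0.023 (standard error 0.15). Among *Sse*, *thr* and *pim* the protease gene alone had arrays without overlap, and it was not called. Arrays without overlap in either direction were found in 18.1% of all genes. Of 5788 genes as bright as those of the list, 697 were higher without overlap and 479 lower. Whether the change of *Sse* differed from those of *thr* and *pim* was not tested.

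*fzy*, which encodes the Cdc20 that turns the APC/C on at anaphase, had log2 values of 10.54, 10.50 and 10.29 in the mutant and 10.71, 10.73 and 10.01 in wild type. Wild type replicate 3 lay below the mutant arrays and the other two wild type arrays above them. The change was -0.04 (standard error 0.20). *fzy* was the 1 gene of the list with more than 1 probe set named for it alone. Its 2 dimmer probe sets had changes of -0.32 (standard error 0.13, adjusted p = 0.382, limma) and -0.0067 (standard error 0.064). They averaged 4.97 and 4.52, nearer to background. *fzr*, the Cdh1 that keeps the APC/C active in G1, had a change of 0.15 (standard error 0.11), and a probe set that it shares with another gene was not used.

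**Figure D2:**
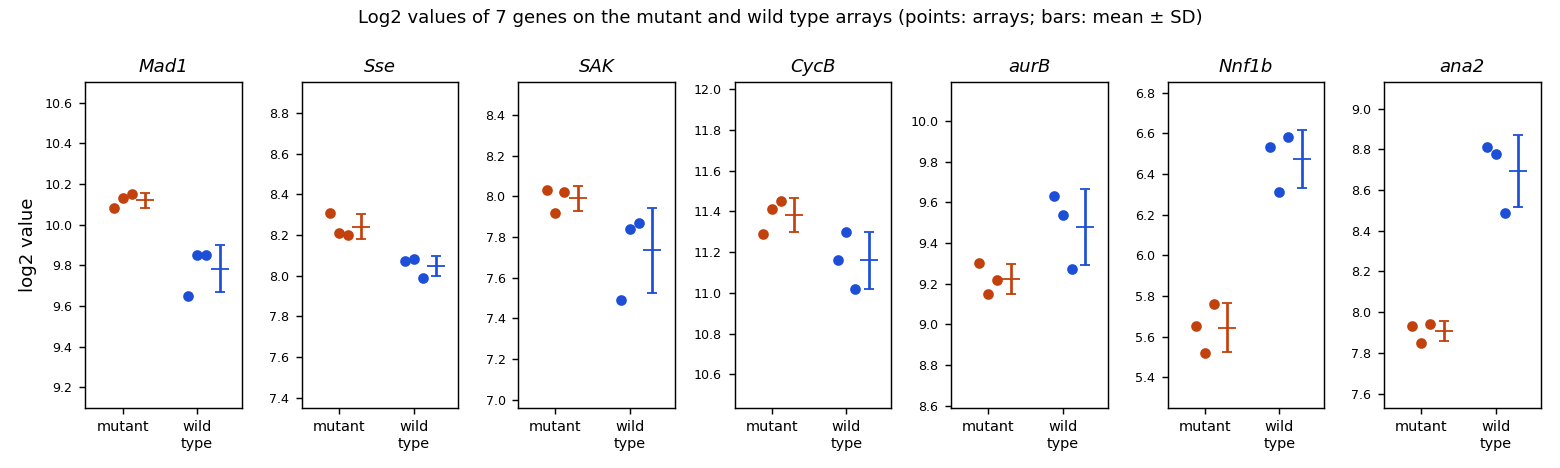
Log2 values on each array (y axis, the same span of 1.6 units in every panel) of *Mad1*, *Sse*, *SAK*, *CycB* and *aurB*, and of *Nnf1b* and *ana2* from the wider set of mitosis genes, for the mutant (left) and wild type (right); points are arrays, bars the mean ± SD. *Nnf1b* and *ana2* are lower in all 3 mutant arrays by more than any gene of the list.

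Of 7 spindle and motor genes on the list 5 were measured. *Klp10A*, a kinesin-13 that shortens microtubules, had log2 values of 9.42, 9.75 and 9.53 in the mutant and 10.10, 9.93 and 9.30 in wild type. Its wild type range of 0.80 was the widest of the 31 genes. The change of -0.21 (standard error 0.21) rested on which wild type arrays were kept. Without wild type replicate 3 it was -0.45 (adjusted p = 0.148, limma), and without wild type replicate 1 it was -0.048 (adjusted p = 0.96, limma). *msps*, the microtubule polymerase of the XMAP215 family, stood at 11.45, 11.42 and 11.49 in the mutant and 11.57, 11.68 and 11.27 in wild type. The mutant arrays lay inside the wild type range. *tacc*, the centrosomal partner of Msps, had a change of -0.17 (standard error 0.076, unadjusted p = 0.0603, limma). The kinesin-5 gene *Klp61F* had a change of -0.017 (standard error 0.090) and the kinesin-14 gene *ncd* one of 0.037 (standard error 0.11).

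At the centrosome 2 of 3 genes of the list were measured. *SAK*, the kinase that starts centriole duplication, had log2 values of 8.03, 7.92 and 8.02 in the mutant and 7.49, 7.84 and 7.87 in wild type, without overlap. The gap to the nearest wild type array was narrow and wild type replicate 1 lay well below. The change was 0.26 (standard error 0.11, unadjusted p = 0.0618, adjusted p = 0.465, limma), and 0.14 without wild type replicate 1. *Sas-4*, a centriole assembly gene, stood at 8.32, 8.16 and 8.39 in the mutant and 8.15, 8.45 and 8.07 in wild type, a change of 0.067 (standard error 0.12).

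The cytokinesis genes of the list, 3 of 4 of them measured, also split by direction. *tum*, the RhoGAP of centralspindlin, had log2 values of 9.91, 9.90 and 10.10 in the mutant and 10.24, 10.31 and 9.89 in wild type, a change of -0.18 (standard error 0.13) that was -0.305 without wild type replicate 3 and -0.095 without wild type replicate 2. *pbl*, the RhoGEF that activates Rho1 at the furrow, stood at 10.63, 10.52 and 10.58 in the mutant and 10.76, 11.03 and 10.31 in wild type, a change of -0.12 (standard error 0.18). In both genes wild type replicate 3 was the lowest of all 6 arrays. *scra*, which encodes the ring scaffold anillin, had a change of 0.17 (standard error 0.12).

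All 4 condensin genes of the list were measured, and 3 of them had changes of 0.03 or less in either direction. *barr*, a kleisin subunit, had log2 values of 9.91, 9.96 and 10.06 in the mutant and 9.87, 10.18 and 9.85 in wild type. *Cap-G*, a HEAT-repeat subunit, stood at 9.30, 9.41 and 9.33 in the mutant and 9.31, 9.48 and 9.21 in wild type. The changes were 0.01 (standard error 0.11) for *barr* and 0.013 (standard error 0.087) for *Cap-G*. *glu*, the SMC4 subunit, had a change of 0.03 (standard error 0.13) and *SMC2* one of -0.15 (standard error 0.096).

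The list varied more among wild type arrays than among mutant arrays. In 28 of the 31 genes the SD of the 3 mutant arrays was below that of the 3 wild type arrays, as it was in 71.6% of all genes. The median SD was 0.093 in the mutant and 0.18 in wild type for the list, and 0.090 in the mutant and 0.14 in wild type for all genes. For genes as bright as those of the list it was 0.107 in the mutant and 0.18 in wild type, so the wild type spread was not particular to the list. The 3 exceptions were *Bub1*, *Sse* and *tacc*. In wild type the range was 0.50 or more for *Klp10A*, *cid*, *fzy*, *pbl*, *Spc25* and *pim*, with replicate 3 the lowest in each, and no gene of the list had so wide a range in the mutant, where the widest was 0.36 (*cid*).

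**Figure D3:**
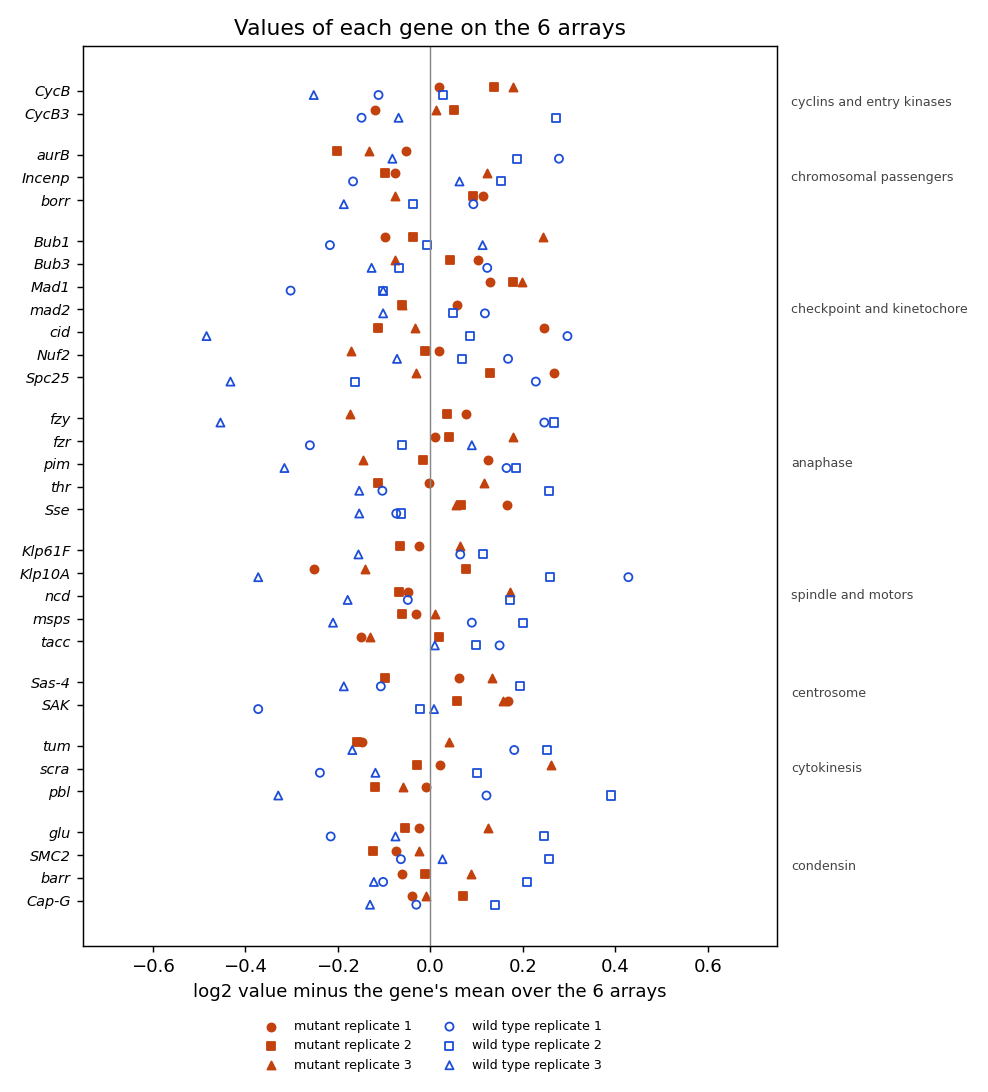
Log2 value of each gene on each array minus the mean of that gene over the 6 arrays (x axis), by gene and role (y axis); filled symbols are mutant arrays and open symbols wild type arrays. The mutant symbols stay close together, whereas wild type replicate 3 (open triangles) is the lowest wild type array in 22 of the 31 genes.

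This spread ran in one direction over much of the list. Wild type replicate 3 was the lowest wild type array for 22 of the 31 genes, against 36% of all genes, and wild type replicate 2 was the highest for 18, against 24.1% of all genes. The median deviation of the 31 genes from their own means was -0.0033, -0.015 and 0.012 on mutant replicates 1, 2 and 3, and -0.03, 0.14 and -0.13 on wild type replicates 1, 2 and 3. For all genes these medians lay between -0.0083 and 0.0083. By their median the eye disc markers had the same order of wild type arrays. Their median deviation was 0.11, 0.095 and 0.125 on the mutant arrays and -0.14, 0.16 and -0.47 on the wild type arrays. Wild type replicate 3 was the lowest wild type array for 6 of the 9 markers, and wild type replicate 1 was the lowest for 3. The salivary glue genes were at 12.73, 9.64 and 9.30 on average in the mutant and at 8.82, 11.38 and 11.97 in wild type. The part of tissue content in the spread of the mitotic genes was not tested.

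**Figure D4:**
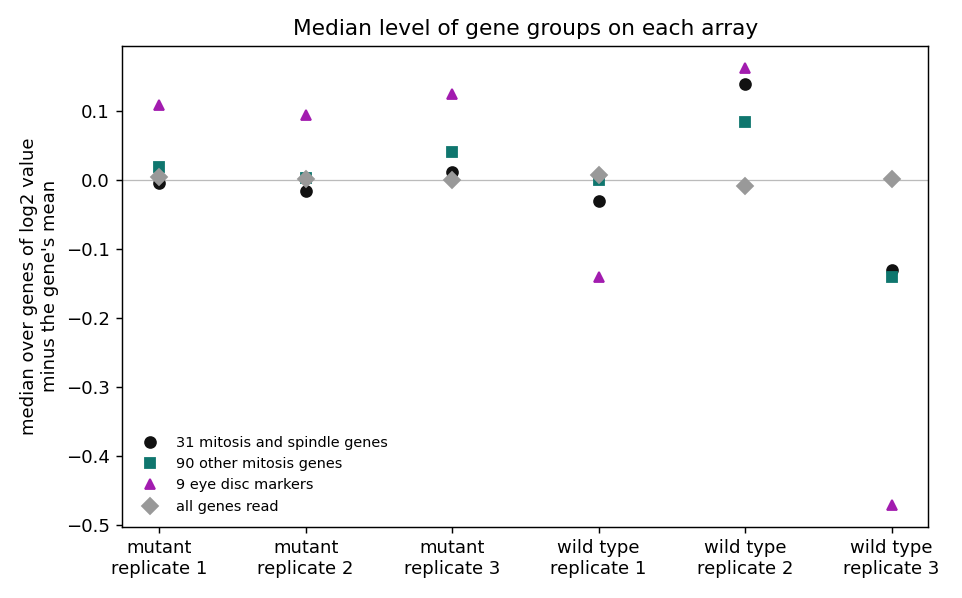
Median over genes of the log2 value minus the mean of the gene over the 6 arrays (y axis), for the 31 mitosis and spindle genes, 90 other mitosis genes, 9 eye disc markers and all genes read, on each array (x axis). The mitotic groups and the eye disc markers are lowest on wild type replicate 3, where all genes stay near 0.

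The balance of higher and lower genes followed the wild type arrays. Of the 31 genes 9 were higher in the mutant without wild type replicate 3, 24 without wild type replicate 2 and 17 without wild type replicate 1. The median log2 change was -0.048, 0.088 and 0.005 in these fits. With array weights 10 genes were higher, at a median of -0.083. No gene of the list passed an adjusted p of 0.05 in any of them.

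Beyond the list, 90 of 106 other genes of mitosis were measured, of which none was called higher and 2 were called lower in the mutant (limma), against 0.968% of all genes higher and 0.96% lower. At an unadjusted p under 0.05, 6 stood higher and 3 lower, against 7.06% of all genes higher and 6.83% lower. *Nnf1b*, which encodes a subunit of the Mis12 complex of the kinetochore, had log2 values of 5.65, 5.52 and 5.76 in the mutant and 6.53, 6.31 and 6.58 in wild type. It fell to 0.563-fold (95% interval 0.475 to 0.666), -0.83 on the log2 scale (standard error 0.10, adjusted p = 0.0145, limma). It was dim, with a mutant mean of 5.64, where the medians of all probe sets were 5.25 to 5.30. In the same group of kinetochore genes *Nnf1a* changed by -0.03 (standard error 0.13) and *Mis12* by 0.10 (standard error 0.095). *Kmn1*, given below, changed by -1.02. *ana2*, a gene of centriole duplication, had 7.93, 7.85 and 7.94 in the mutant and 8.81, 8.78 and 8.49 in wild type. It fell to 0.58-fold (95% interval 0.491 to 0.684), -0.79 on the log2 scale (standard error 0.10, adjusted p = 0.0168, limma). In *Nnf1b* and *ana2* all mutant arrays lay below all wild type arrays. Both are read from 1 probe set. Leaving out mutant replicate 1 or 2, both calls ended (adjusted p 0.0749 to 0.098, limma). That of *ana2* also ended without mutant replicate 3 or wild type replicate 2 (0.0805 and 0.0714), and that of *Nnf1b* without wild type replicate 1 (0.0505), while the log2 change stayed between -0.91 and -0.73 in all fits of both genes.

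Markers of some other cell types also stood apart by genotype. Their calls are set against 0.968% of all genes called higher and 0.96% lower. At an unadjusted p under 0.05 (limma) these shares were 7.06% higher and 6.83% lower. Whatever the p, 50.1% of all genes stood higher in the mutant. All 7 hemocyte markers stood higher in the mutant, 1 of them called, with mean levels of 8.31 to 8.56 in the mutant and 7.06 to 7.94 in wild type. All 8 photoreceptor and neuron markers stood higher, none of them called (limma), at 8.89 to 9.14 in the mutant and 8.45 to 8.79 in wild type. In that list 3 had an unadjusted p under 0.05. All 5 muscle markers stood lower, none of them called (limma), at 10.37 to 10.81 in the mutant and 10.95 to 11.34 in wild type, 4 of them at an unadjusted p under 0.05. Of 6 neuroblast markers 5 stood higher, 1 of them called, at 6.92 to 6.98 in the mutant and 6.75 to 6.84 in wild type, with *wor* at 4.35 on average. Of 5 glia markers 2 stood higher and 3 lower, at 6.43 to 6.55 in the mutant and 6.33 to 6.63 in wild type. No glia, salivary glue or fat body marker had an unadjusted p under 0.05 (limma). The part of tissue content in the calls of *Nnf1b* and *ana2* was not tested.

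Few of the other mitosis genes differed as *Nnf1b* and *ana2* did. *Kmn1*, a further kinetochore gene, chosen to be named after its values were seen, had 9.09, 9.03 and 9.24 in the mutant and 9.51, 10.27 and 10.63 in wild type. Its change of -1.02 (standard error 0.27) did not pass (adjusted p = 0.185, limma), and its wild type arrays spread widely. It passed without wild type replicate 1 (-1.33, adjusted p = 0.0152) and with array weights (-1.06, adjusted p = 0.0454, limma). Over the other kinetochore and checkpoint genes 9 of 14 stood higher in the mutant, at a median of 0.077, and over the other centrosome genes 5 of 9, at a median of 0.027. Among APC/C genes and partners 5 of 11 stood higher, and *shtd*, which encodes the Apc1 subunit, had the smallest p, at a log2 change of 0.30 (standard error 0.10, adjusted p = 0.329, limma). Of 9 cohesin genes 7 stood higher, at a median of 0.10, with *san*, an acetyltransferase needed for cohesion, at 0.35 (standard error 0.093, adjusted p = 0.181, limma). *Grip163*, a subunit of the gamma-tubulin ring complex, stood at 0.43 (standard error 0.10, adjusted p = 0.136, limma) among 26 other spindle genes, whose median was 0.02. In the remaining groups the gene with the smallest p was *grp*, the Chk1 kinase, at 0.22 (adjusted p = 0.496, limma), *Det*, the fly survivin, at -0.21 (adjusted p = 0.539, limma) and *Septin1* at 0.18 (adjusted p = 0.405, limma). The direction of *grp* and *Septin1* rested on the probe set read, since the mean of its 3 probe sets gave -0.39 for *grp* and the mean of its 2 gave -0.33 for *Septin1*. The median log2 change of all 90 genes was 0.032, and 57 stood higher and 33 lower, against 50.1% of all genes higher. They too were thus spread on both sides of 0.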

How the data were processed

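Total RNA of 6 eye disc samples, 3 of each genotype, was hybridized to Affymetrix Drosophila arrays. The authors deposited log2 expression values that rma (affy package) had background corrected, brought to a common distribution and summarized per probe set, with no filter stated. The number of arrays limits the precision, and no raw intensity was used. Of 18952 probe sets, 183 controls were left out. On the other 18769 the linear model of limma 3.58.1 (R 4.3.3) was run with lmFit and eBayes and no covariate, with Benjamini-Hochberg adjustment over every probe set. A platform annotation, updated through the RefSeq gene table, named 1 gene for 13647 probe sets and several for 402, and 4720 are unnamed here. The members and lists were chosen with earlier results of these data known. Genes shown on every array are those with an unadjusted p under 0.05, those without overlap, and the brightest and dimmest of each class; of other mitosis genes, those called or, in a group without a call, the one with the smallest p. Alternatives covered normalization, the variance model, array weights, a minimum mean of 5, leaving out each array, a block for the replicate number, the choice of probe set and the threshold. The fit was tested on simulated data.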

Additional observations from a re-analysis of the deposited data

How the results depend on the processing

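No mitosis or spindle gene of the list was called under any alternative at the adjusted threshold, and 4 were at an unadjusted p under 0.05, which also gave 9 of the other mitosis genes and 2214 probe sets. An adjusted p at or under 0.01 left 0 other mitosis genes and 119 probe sets, of 2 and 300. Array weights gave 477 probe sets and 10 genes of the list higher, in place of 16. With 1 array left out, the list held 9 to 24 higher genes at a median of -0.048 to 0.088, the other mitosis genes called were 0 to 2 and the probe sets 127 to 412 (lowest without mutant replicate 2, highest without wild type replicate 3). The replicate block gave 0 genes of the list, 2 other mitosis genes and 300 probe sets, and changed no call of a mitosis gene named here, whereas that of *mira* ended (adjusted p = 0.0738, limma). Deviations of same-numbered arrays correlated at 0.19, -0.23 and 0.29 across probe sets, and not every array correlated best with its own. Fat body genes fell with replicate number in both genotypes, at 9.42, 6.98 and 6.05 in the mutant and 9.95, 7.61 and 6.50 in wild type. The salivary glue genes fell with it in the mutant and rose with it in wild type. Whether same-numbered arrays share more than a number was not tested. Signs changed, for genes that were not called, to 0.0067 for *pim* and 0.013 for *Klp61F* with median centring, to -0.0039 for *barr* with another quantile normalization and, with array weights, to -0.022 for *cid*, -0.056 for *Sas-4*, -0.073 for *ncd*, -0.092 for *glu*, -0.088 for *barr* and -0.039 for *Cap-G*. With the mean of its probe sets *grp* stood at -0.39 and *Septin1* at -0.33, and with the probe set of the largest change at -0.72 and -0.84. With 1 array left out, the log2 change ranged from -0.12 to 0.09 for *CycB3*, -0.005 to 0.12 for *Bub3*, -0.16 to 0.23 for *cid*, -0.28 to 0.083 for *fzy*, -0.17 to 0.033 for *msps*, -0.01 to 0.18 for *Sas-4*, -0.32 to 0.042 for *pbl*, -0.048 to 0.12 for *barr*, -0.048 to 0.087 for *Cap-G*, -0.125 to 0.035 for *Incenp*, -0.03 to 0.148 for *Bub1*, -0.105 to 0.005 for *mad2*, -0.187 to 0.063 for *pim*, -0.098 to 0.037 for *Klp61F*, -0.043 to 0.132 for *ncd* and -0.07 to 0.16 for *glu*. With the sign kept it ranged from 0.062 to 0.237 for *fzr*, 0.082 to 0.263 for *scra* and -0.215 to -0.055 for *SMC2*. *thr*, at 0, ranged from -0.077 to 0.128. The alternatives for *Kmn1*, *Mcm3*, *mira* and the 13 genes of the list not shown on every array were added after seeing the data. The cause of these shifts was not tested.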

Other observations

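Genes of G1/S and DNA replication, which precede mitosis, were not called either. Of 12 measured of 15, 10 stood higher in the mutant, where 50.1% of all genes did, at a median log2 change of 0.083. Their median deviation from their own means was 0.037, 0.08 and 0.036 on mutant replicates 1, 2 and 3. On wild type replicates 1, 2 and 3 it was -0.035, 0.09 and -0.135. The part of wild type replicate 3 in the count was not tested. The smallest p was that of *Mcm3*, a subunit of the replicative helicase. It stood at 10.53, 10.52 and 10.61 in the mutant and 10.30, 10.30 and 10.37 in wild type (log2 change 0.23, standard error 0.062, adjusted p = 0.192, limma). In limma 2 of the 12 had an unadjusted p under 0.05, both higher, against 7.06% of all genes higher. Of 6 neuroblast markers 1 was called, *mira*, which segregates cell fate determinants at the division of neural stem cells, at 7.76, 7.67 and 7.72 in the mutant and 7.25, 7.26 and 7.33 in wild type. It rose by 0.44 on the log2 scale (standard error 0.062, adjusted p = 0.0249, limma), where 0.968% of all genes were called higher. Its change stayed between 0.415 and 0.47 over 13 alternatives, some of which cannot alter it, and was called in 6. The call ended with the replicate block (adjusted p = 0.0738), with an intensity trend and robust variance (0.138) and with each array but wild type replicate 3 left out (0.0718 to 0.139, limma). The other 5 markers had changes between -0.30 and 0.35, and *wor* lay near background.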
